A study of Mus musculus with 23 samples.

Results

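Cell cycle genes were followed in cardiac macrophages as a list of 52 named genes. Each was found by its gene name in the deposited table of 54532 genes, and all 52 passed the low-count filter that left 16545 genes for testing. Of the members, 24 act in S phase or at its entry, 27 act in mitosis or mark cycling cells, and Ccnd1, the G1 cyclin D1, was kept apart from both. Poly(A) RNA came from Ly6G-negative, CD11b-positive cells that were sorted magnetically from hearts of C57BL/6 mice. MyS7KO mice carried Smad7 fl/fl alleles, in which loxP sites flank part of the gene for this inhibitory Smad, together with a LyzM-Cre allele, in which Cre is driven from the Lyz2 locus in myeloid cells. Their S7fl/fl littermates carried the same Smad7 fl/fl alleles and no Cre. Hearts were taken at baseline, without infarction, and 3 or 7 days after the left anterior descending coronary artery had been tied off for good. The 23 libraries formed 6 groups: 3 MyS7KO and 3 S7fl/fl at baseline, 5 MyS7KO and 5 S7fl/fl at day 3, and 4 MyS7KO and 3 S7fl/fl at day 7. The labels do not say whether each library came from its own heart, so p-values measure the spread between these libraries.

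A dividing cell first makes D cyclins, which with their kinases release E2F factors from the retinoblastoma protein. E2F then drives the genes of S phase: the MCM helicase and its loaders, the enzymes that make deoxynucleotides, and cyclin E. Genes of mitosis, among them the B cyclins, Cdk1 and the spindle kinases, follow later under FoxM1 and the MuvB complex, which binds a short promoter element called CHR, usually close to CCAAT boxes bound by NF-Y. Macrophages of the uninjured heart renew slowly by local division, and after infarction the heart fills with monocytes that become macrophages, some of which divide.

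The promoters of the members held these elements in different shares. RefSeq windows of 300 bases (250 before to 50 after a gene's start, build GRCm38.p6) were at hand for 41 of the 52 members. The letters searched on both strands were TTTCCCGC, TTTCGCGC, TTTGCCGC and TTTGGCGC for E2F, TTTGAA and TTCGAA for CHR, and CCAAT. An E2F match lay in 8 of 21 S phase windows (38.1%), in 1 of 22 mitosis windows (4.55%) and in 2.26% of all 32851 windows. CHR lay in 17 of 22 mitosis windows (77.3%), in 4 of 21 S phase windows (19%) and in 19.2% of all windows. CCAAT lay in 19 of 22 mitosis windows (86.4%), in 14 of 21 S phase windows (66.7%) and in 37.4% of all windows. All 17 mitosis windows with CHR also held CCAAT (77.3%), a pair found in 7.52% of all windows. Some windows lie wholly inside the gene as placed in the deposited table, among them those of Cdc6, E2f1 and Chek1. Matches describe letters only, and no binding was measured.

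**Figure D1:**
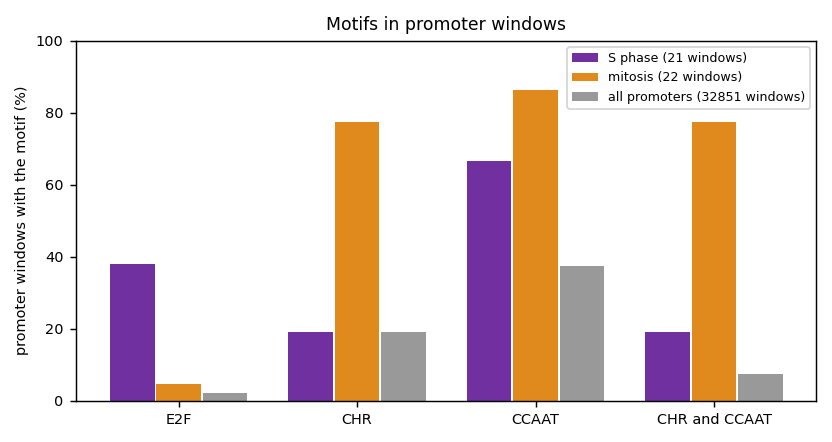
Share of promoter windows (percent, vertical axis) that held each motif (horizontal axis) among S phase members (21 windows), mitosis members (22 windows) and all 32851 windows. E2F letters stood at 38.1% of S phase windows and 4.55% of mitosis windows, and CHR letters at 19% of S phase windows and 77.3% of mitosis windows.

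The windows of 7 genes that are followed below in every library are printed 5′ to 3′ on the gene's strand, with every match in capitals, to show how the elements are laid out. Those of Mcm5 (chr8:75109259-75109558, plus strand), Pcna (chr2:132253131-132253430, minus strand) and Rrm2 (chr12:24708004-24708303, plus strand) belong to S phase genes. In Mcm5 an E2F match on each strand overlaps in a single run, followed by 3 CCAAT boxes. Pcna and Rrm2 each hold 1 CCAAT box and no E2F match.
Mcm5: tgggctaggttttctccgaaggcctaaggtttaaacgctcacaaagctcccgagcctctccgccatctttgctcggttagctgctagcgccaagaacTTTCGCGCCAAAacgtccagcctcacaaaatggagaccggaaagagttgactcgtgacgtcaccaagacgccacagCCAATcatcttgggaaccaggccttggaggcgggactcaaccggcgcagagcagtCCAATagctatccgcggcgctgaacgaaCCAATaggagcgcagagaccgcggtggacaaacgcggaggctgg
Pcna: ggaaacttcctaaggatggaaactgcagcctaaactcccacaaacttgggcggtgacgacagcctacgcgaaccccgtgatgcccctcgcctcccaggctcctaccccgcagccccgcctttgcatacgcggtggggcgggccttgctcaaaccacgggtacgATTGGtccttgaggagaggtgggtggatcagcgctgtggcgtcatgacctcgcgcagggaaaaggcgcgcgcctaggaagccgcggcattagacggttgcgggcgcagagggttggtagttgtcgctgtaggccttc
Rrm2: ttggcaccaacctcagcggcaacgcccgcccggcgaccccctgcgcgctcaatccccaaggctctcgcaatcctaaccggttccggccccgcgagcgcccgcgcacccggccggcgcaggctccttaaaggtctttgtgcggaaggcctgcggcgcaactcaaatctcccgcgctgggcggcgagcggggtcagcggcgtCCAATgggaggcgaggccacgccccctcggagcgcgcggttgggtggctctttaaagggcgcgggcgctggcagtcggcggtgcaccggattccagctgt

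Those of Cdk1 (chr10:69352863-69353162), Top2a (chr11:99024140-99024439), Mki67 (chr7:135716330-135716629) and Ccnb1 (chr13:100786437-100786736), all on the minus strand, belong to mitosis genes. Cdk1 holds all 3 kinds of element and is the 1 mitosis window with an E2F match. Top2a holds 4 CHR and 6 CCAAT matches, Mki67 holds 2 and 3, and Ccnb1 holds 2 CCAAT boxes and no CHR match in this window. The window of Ccne1 holds none of the letters searched.
Cdk1: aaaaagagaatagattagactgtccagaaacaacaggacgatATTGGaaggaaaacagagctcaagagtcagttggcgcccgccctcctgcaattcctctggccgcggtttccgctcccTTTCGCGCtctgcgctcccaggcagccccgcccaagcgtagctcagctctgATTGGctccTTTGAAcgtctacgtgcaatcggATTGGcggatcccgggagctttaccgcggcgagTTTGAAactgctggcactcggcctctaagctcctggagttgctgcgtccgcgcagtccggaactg
Top2a: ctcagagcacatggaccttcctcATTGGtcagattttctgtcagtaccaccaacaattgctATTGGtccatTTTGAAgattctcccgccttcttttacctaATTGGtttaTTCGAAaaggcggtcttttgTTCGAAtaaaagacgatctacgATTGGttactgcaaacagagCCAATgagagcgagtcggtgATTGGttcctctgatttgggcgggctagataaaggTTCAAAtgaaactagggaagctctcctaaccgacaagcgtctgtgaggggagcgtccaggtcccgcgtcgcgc
Mki67: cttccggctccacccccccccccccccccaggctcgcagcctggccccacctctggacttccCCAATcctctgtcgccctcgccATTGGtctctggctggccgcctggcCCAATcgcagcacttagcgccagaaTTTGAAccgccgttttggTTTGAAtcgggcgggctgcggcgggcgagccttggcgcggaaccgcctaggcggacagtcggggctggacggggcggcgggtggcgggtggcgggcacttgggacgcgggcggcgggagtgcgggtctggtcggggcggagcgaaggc
Ccnb1: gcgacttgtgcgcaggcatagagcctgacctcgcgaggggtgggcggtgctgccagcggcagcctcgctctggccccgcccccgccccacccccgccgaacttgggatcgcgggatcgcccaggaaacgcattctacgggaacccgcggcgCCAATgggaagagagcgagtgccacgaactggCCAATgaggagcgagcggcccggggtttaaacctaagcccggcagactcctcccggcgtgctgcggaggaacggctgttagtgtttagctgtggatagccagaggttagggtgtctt

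Library totals ran from 15479402 to 23884938 counts. Levels are given as CPM, counts scaled by TMM to a fixed library total, and changes as log2 with the standard error after ±. A gene was called, and said to have risen or fallen, where the edgeR quasi-likelihood test gave a Benjamini-Hochberg adjusted p under 0.05 over all genes tested. Smad7 averaged 38 ± 15.9 CPM in MyS7KO and 56.4 ± 4.25 in S7fl/fl at baseline, 14.6 ± 3.98 in MyS7KO and 34.7 ± 4.42 in S7fl/fl at day 3, and 23.4 ± 7.66 in MyS7KO and 62.5 ± 6.76 in S7fl/fl at day 7 (SD, n = 3 to 5). These differences did not pass (adjusted p = 0.999, 0.11 and 0.0702), and reads outside the deleted part, which the labels do not name, remain in the count. Lyz2, whose locus carries the Cre, fell in MyS7KO at every time (log2 -0.90, -0.92 and -0.97, adjusted p = 0.019, 0.000229 and 0.00177). All 11 macrophage markers were measured in every group, with sums of 12925 to 27921 CPM. Other cell types were present: fibroblast markers summed to 247 to 5080 CPM and endothelial markers to 199 to 2421 CPM. At day 7 Xist was found in the 4 MyS7KO libraries and Y-linked RNA in the 3 S7fl/fl libraries, so sex and genotype cannot be told apart there. At baseline Xist was the main sex signal in 1 of 3 MyS7KO and 2 of 3 S7fl/fl libraries, and at day 3 in 3 of 5 and 2 of 5. Within each genotype, comparisons of day 7 with an earlier time therefore also differ in sex make-up. Replicate 4 of S7fl/fl day 3 stood apart in the cycle genes, and 3 day 3 libraries, this one among them, carried a minor sex signal above 2%.

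Summed over all members, group means had the same outline in both genotypes: low at baseline, highest at day 3 and partly back at day 7. They were 1223, 2400 and 1436 CPM in MyS7KO and 1191, 2084 and 1659 in S7fl/fl, in that order of times. Not every member followed it. In both genotypes Ccnd1 and Kif23 had their highest mean at baseline, and Espl1 and Cdt1 at day 7. In S7fl/fl Mki67, Ccnb2 and Cenpa also had theirs at day 7. The 24 S phase genes summed to 619, 600 and 729 CPM in MyS7KO and 664, 681 and 635 in S7fl/fl libraries at baseline. At day 3 they summed to 1286, 1321, 1444, 1280 and 1393 CPM in MyS7KO and 1414, 1158, 1331, 884 and 1166 in S7fl/fl libraries, and at day 7 to 642, 682, 702 and 858 in MyS7KO and 802, 1015 and 789 in S7fl/fl libraries. Every day 3 sum lay above every baseline sum in both genotypes. The day 7 sums of MyS7KO overlapped the baseline sums of MyS7KO, while those of S7fl/fl lay above theirs.

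The 27 mitosis genes summed to 406, 441 and 537 CPM in MyS7KO and 452, 410 and 437 in S7fl/fl libraries at baseline. Their day 3 sums were 939, 856, 1065, 978 and 1037 CPM in MyS7KO and 1068, 814, 1066, 461 and 705 in S7fl/fl libraries, and their day 7 sums 691, 596, 557 and 763 in MyS7KO and 703, 878 and 618 in S7fl/fl libraries. At day 7 every mitosis sum lay above every baseline sum of its genotype. Per transcript length Pcna, the sliding clamp of DNA polymerase, was the most abundant member in every group, with mean deposited FPKM of 75.1 (MyS7KO day 7) to 123 (MyS7KO day 3), against medians over the members of 3.115 to 7.595 FPKM. In these sorted cell mixtures more dividing cells and more RNA per cell cannot be told apart.

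**Figure D2:**
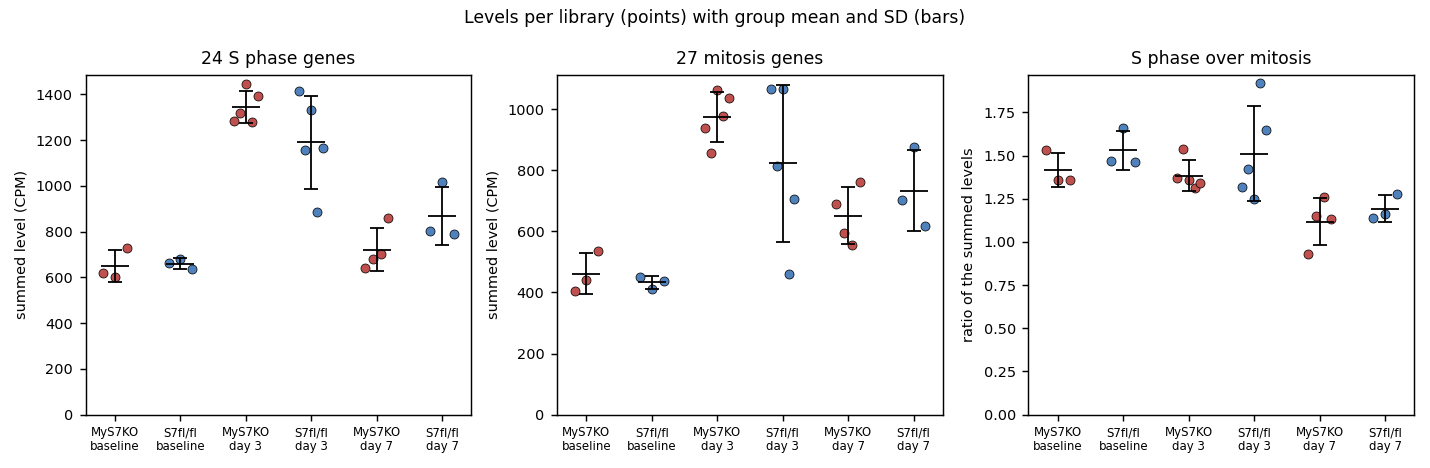
Summed CPM of the S phase genes (left) and mitosis genes (middle) and their ratio (right) in each of the 23 libraries (points) by group, with the group mean and SD (bars). Day 3 sums of the S phase genes run from 884 to 1444 CPM, above all baseline sums (600 to 729 CPM), and the ratio is at or below 1.28 in every day 7 library.

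The comparison of day 3 with baseline asked which of these genes change in the first days after infarction. Of the 52 members 47 rose and 2 fell in MyS7KO, and 47 rose and 2 fell in S7fl/fl. Over all genes tested 30.7% rose and 35.2% fell in MyS7KO, and 29.9% rose and 34.1% fell in S7fl/fl. The S phase list rose in 23 of 24 members in each genotype, with a median log2 change of 1.35 in MyS7KO and 1.12 in S7fl/fl, and the mitosis list in 24 of 27, with medians of 1.13 in MyS7KO and 0.99 in S7fl/fl. The median over all genes tested was -0.10 in MyS7KO and -0.06 in S7fl/fl. In MyS7KO the day 3 libraries lay wholly above the baseline libraries for 47 members (29% of all genes), and in S7fl/fl for 33 (26.6% of all genes).

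**Figure D3:**
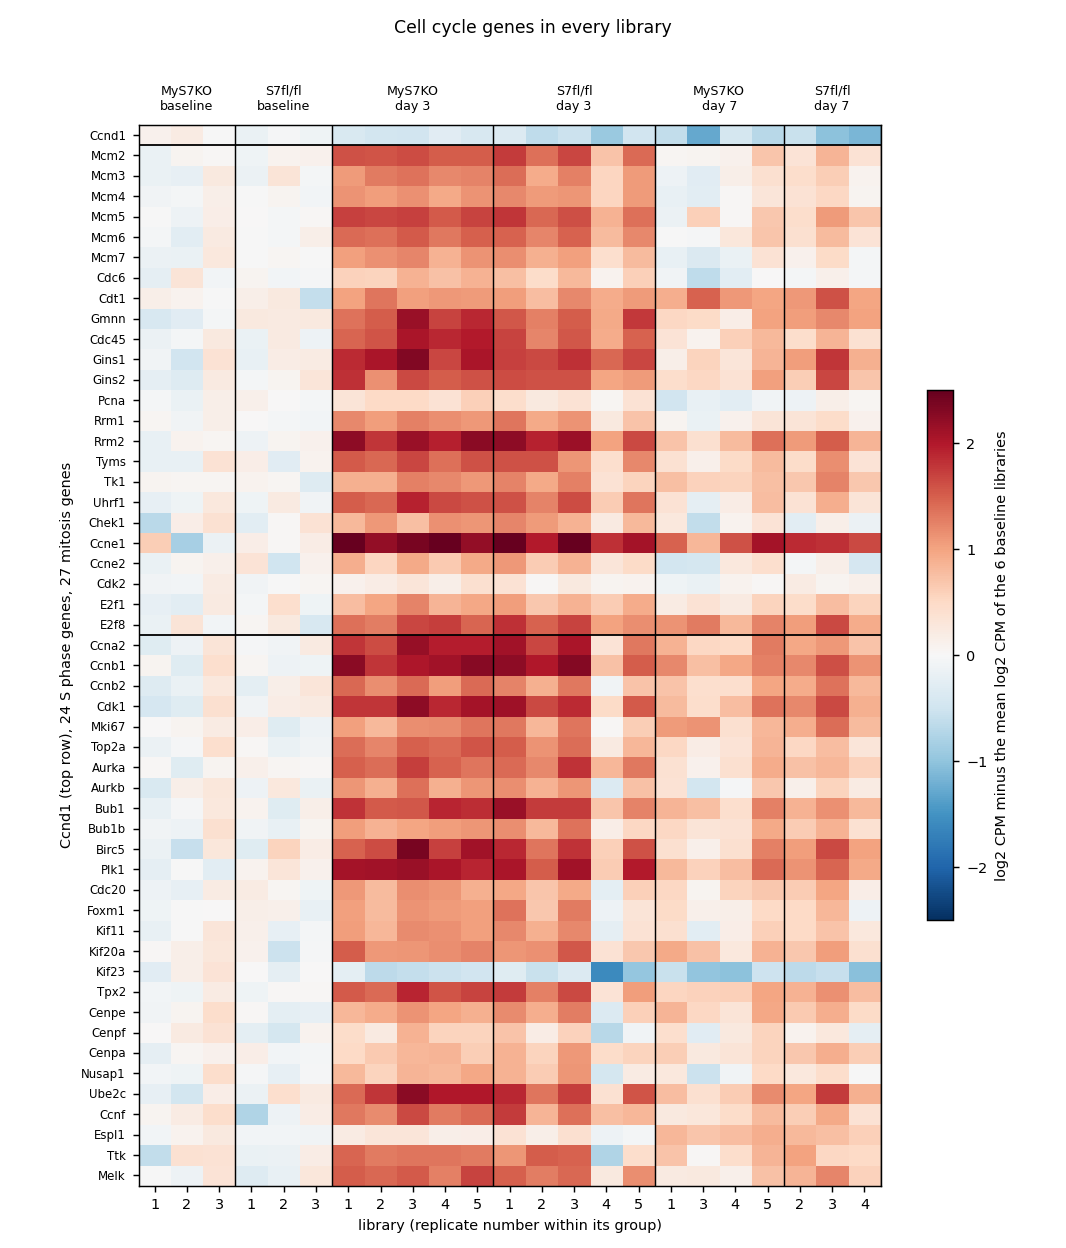
Colour gives the log2 CPM of each member (rows: Ccnd1, S phase genes, mitosis genes) in each library (columns, by group) minus its mean over the 6 baseline libraries. Day 3 columns are red in nearly all rows, Ccnd1 and Kif23 are blue, and replicate 4 of S7fl/fl day 3 is paler than its group in both lists.

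All the licensing genes rose. Mcm2 to Mcm7, the 6 subunits of the replicative helicase, rose by log2 1.07 to 1.66 in MyS7KO and 0.86 to 1.45 in S7fl/fl. Mcm5 gave 28.3, 26.1 and 32.1 CPM in MyS7KO and 28.9, 27.7 and 29.3 in S7fl/fl at baseline, 93.8, 91.2, 94.3, 83 and 92.1 in MyS7KO and 99.1, 77.8, 87.9, 52.2 and 74.6 in S7fl/fl at day 3, and 26, 43.4, 29.3 and 45.5 in MyS7KO and 39.1, 60.2 and 46.3 in S7fl/fl at day 7. Each day 3 value was above each baseline value, and the rise was 1.66 ± 0.191 (adjusted p = 1.46e-07) in MyS7KO and 1.45 ± 0.189 (adjusted p = 9.12e-07) in S7fl/fl. Mcm2 gave 78.9, 60.7, 74.9, 38.5 and 62.3 CPM in S7fl/fl day 3 and 21.7, 24.9 and 25.3 CPM in S7fl/fl baseline, without overlap (log2 1.40 ± 0.185, adjusted p = 9.98e-07). The loaders Cdc6 and Cdt1 rose by 0.71 and 1.03 in MyS7KO and by 0.57 and 1.05 in S7fl/fl. Gmnn (geminin), which blocks Cdt1 outside G1, gave 15.7, 17.4, 27.1, 19.7 and 22.4 CPM in MyS7KO day 3 and 4.64, 5.01 and 5.9 CPM in MyS7KO baseline. Its rise was 1.98 ± 0.204 (adjusted p = 2.17e-08) in MyS7KO and 1.20 ± 0.196 (adjusted p = 1.42e-05) in S7fl/fl.

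The helicase activators Cdc45, Gins1 and Gins2, which turn the loaded MCM ring into a moving helicase, rose in both genotypes. Gins1 gave 13.6, 15.4, 18.5, 11.8 and 15.2 CPM in MyS7KO day 3 and 3.51, 2.67 and 4.76 CPM in MyS7KO baseline, a rise of log2 2.02 ± 0.227 (adjusted p = 6.82e-08). Cdc45 gave 12.6, 13.8, 18.9, 17 and 18.3 CPM in MyS7KO day 3 and 4.18, 4.47 and 5.5 CPM in MyS7KO baseline, a rise of log2 1.77 ± 0.204 (adjusted p = 1.08e-07). In S7fl/fl Gins1 and Cdc45 rose by 1.58 and 1.41, and Gins2 rose by 1.65 in MyS7KO and 1.29 in S7fl/fl. Cdc45 and Gins2 each overlap another measured gene on the opposite strand (Ufd1 and Gse1). With strandedness not stated, reads in the bases that such a pair shares cannot be told apart. The same holds for Mcm7, Ccne2, Ccna2, Cdc20, Kif20a and Ccnd1, 8 members in all that overlap a gene averaging at least 100 counts.

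Among the enzymes that supply and string together deoxynucleotides, Rrm1, Rrm2, Tyms and Tk1 all rose at day 3. Rrm2, the regulated subunit of ribonucleotide reductase, gave 8.87, 10.7 and 10.4 CPM in MyS7KO and 9.25, 10.5 and 10.8 in S7fl/fl at baseline, 47.7, 34.7, 45.1, 38.6 and 48.3 in MyS7KO and 47.3, 38, 44.3, 20.3 and 31.7 in S7fl/fl at day 3, and 16.4, 13.2, 17.5 and 26.3 in MyS7KO and 21, 28.6 and 18.1 in S7fl/fl at day 7. The day 3 rise was 2.1 ± 0.246 (adjusted p = 2.23e-07) in MyS7KO and 1.84 ± 0.242 (adjusted p = 1.28e-06) in S7fl/fl, with no overlap between the times. Rrm1, its partner subunit, rose by 1.11 in MyS7KO and 0.96 in S7fl/fl. The thymidylate enzymes Tyms and Tk1 rose by 1.50 and 1.01 in MyS7KO and by 1.22 and 0.97 in S7fl/fl.

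Of the S phase genes called, Pcna had the smallest rise at day 3 in both genotypes. Pcna gave 207, 193 and 238 CPM in MyS7KO and 234, 217 and 207 in S7fl/fl at baseline, 270, 303, 305, 276 and 325 in MyS7KO and 291, 256, 278, 224 and 275 in S7fl/fl at day 3, and 154, 189, 180 and 204 in MyS7KO and 198, 240 and 223 in S7fl/fl at day 7. All day 3 values of MyS7KO lay above its baseline values, while in S7fl/fl replicate 4 at day 3 (224 CPM) lay within the baseline range. The rise was 0.48 ± 0.107 (adjusted p = 0.00047) in MyS7KO and 0.27 ± 0.106 (adjusted p = 0.03) in S7fl/fl. The S7fl/fl call was lost without replicate 2 or 3 of S7fl/fl baseline (adjusted p = 0.0706 and 0.11) and without replicate 1 or 5 of S7fl/fl day 3 (adjusted p = 0.07 and 0.0515). It was also lost with only the groups compared in the fit (adjusted p = 0.0559) and by limma on log2(FPKM + 1) without a filter (adjusted p = 0.0628). Pcna-ps2, a near copy, averaged 17.6 counts per library.

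The regulators of S phase entry rose too, save for Cdk2. Ccne1, cyclin E1, gave 2.37, 0.872 and 1.39 CPM in MyS7KO and 1.73, 1.58 and 1.75 in S7fl/fl at baseline, 9.14, 7.1, 7.99, 9.47 and 7.13 in MyS7KO and 8.8, 6.09, 9.2, 5.46 and 6.51 in S7fl/fl at day 3, and 4.32, 2.75, 4.66 and 6.54 in MyS7KO and 5.65, 5.49 and 4.85 in S7fl/fl at day 7. Its rise at day 3, 2.39 ± 0.285 (adjusted p = 1.65e-07) in MyS7KO and 2.09 ± 0.279 (adjusted p = 9.71e-07) in S7fl/fl, was the largest of the S phase list in both genotypes, from a low level. Its relative Ccne2 rose by 0.78 in MyS7KO and 0.67 in S7fl/fl, and the factors E2f1 and E2f8 by 1.04 and 1.46 in MyS7KO and by 0.74 and 1.48 in S7fl/fl. Uhrf1, which helps to copy DNA methylation, and Chek1, the replication checkpoint kinase, rose by 1.63 and 0.96 in MyS7KO and by 1.31 and 0.81 in S7fl/fl. Cdk2, the kinase partner of cyclin E, did not pass, with 0.21 ± 0.098 (adjusted p = 0.0673) in MyS7KO and 0.18 ± 0.0979 (adjusted p = 0.119) in S7fl/fl.

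Of the mitosis list, the cyclins that drive entry into mitosis and their kinase rose together. Ccna2, Ccnb1, Ccnb2 and Cdk1 rose by log2 1.35 to 2.02 in MyS7KO and 0.81 to 1.91 in S7fl/fl. Ccnb1, cyclin B1, gave 5.21, 4.03 and 6.69 CPM in MyS7KO and 5.16, 4.58 and 4.62 in S7fl/fl at baseline, 23.8, 17.3, 20.2, 21.4 and 24 in MyS7KO and 23.4, 19.9, 24.4, 8.31 and 14.3 in S7fl/fl at day 3, and 11.4, 8.43, 9.73 and 12 in MyS7KO and 11.4, 15.3 and 10.8 in S7fl/fl at day 7. Its day 3 values lay above all baseline values in both genotypes, by 2.00 ± 0.263 (adjusted p = 8.73e-07) in MyS7KO and 1.91 ± 0.263 (adjusted p = 1.71e-06) in S7fl/fl. Cdk1, the mitotic kinase, gave 7.43, 7.96 and 13 CPM in MyS7KO and 9.29, 11.3 and 11.5 in S7fl/fl at baseline, 34.2, 33.9, 46.7, 36.3 and 41.5 in MyS7KO and 42.9, 30.8, 36.1, 13.8 and 28.5 in S7fl/fl at day 3, and 17.2, 13.4, 16.8 and 25.3 in MyS7KO and 22.8, 31.2 and 18.3 in S7fl/fl at day 7. The rise was 2.02 ± 0.299 (adjusted p = 6.79e-06) in MyS7KO and 1.51 ± 0.291 (adjusted p = 0.000145) in S7fl/fl, and replicate 4 of S7fl/fl day 3 (13.8 CPM) was the day 3 library nearest to baseline.

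The chromosome genes most used as marks of division rose as well. Mki67, which coats mitotic chromosomes, gave 86.2, 89.6 and 98.9 CPM in MyS7KO and 96.4, 69.7 and 78.2 in S7fl/fl at baseline, 176, 151, 192, 195 and 216 in MyS7KO and 213, 153, 218, 88 and 132 in S7fl/fl at day 3, and 179, 188, 114 and 152 in MyS7KO and 162, 226 and 148 in S7fl/fl at day 7. It rose at day 3 by 1.02 ± 0.236 (adjusted p = 0.000765) in MyS7KO and 0.98 ± 0.235 (adjusted p = 0.00113) in S7fl/fl, though replicate 4 of S7fl/fl day 3 (88 CPM) lay within the baseline range. Top2a, the topoisomerase that untangles sister chromatids, gave 50.5, 54.8 and 74.9 CPM in MyS7KO and 57.5, 50.1 and 52.8 in S7fl/fl at baseline, 148, 131, 159, 149 and 167 in MyS7KO and 161, 122, 148, 65.8 and 100 in S7fl/fl at day 3, and 80.3, 64.3, 71 and 101 in MyS7KO and 80.6, 96.1 and 69.4 in S7fl/fl at day 7. It rose by 1.33 ± 0.218 (adjusted p = 1.99e-05) in MyS7KO and 1.16 ± 0.217 (adjusted p = 9.16e-05) in S7fl/fl.

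The kinases of mitosis and the spindle checkpoint, Aurka, Aurkb, Plk1, Bub1, Bub1b, Ttk and Melk, all rose at day 3, by 0.93 to 2.22 in MyS7KO and 0.80 to 1.61 in S7fl/fl. Plk1, which acts from mitotic entry to cell separation, gave 16.4, 16.6, 17.4, 15.9 and 14.5 CPM in MyS7KO day 3 and 3.3, 3.87 and 3.22 CPM in MyS7KO baseline, a rise of log2 2.22 ± 0.256 (adjusted p = 1.05e-07). Aurka, the centrosome kinase, gave 14, 13.1, 16.4, 13.8 and 12.5 CPM in MyS7KO day 3 and 5.06, 4.03 and 5.25 CPM in MyS7KO baseline (log2 1.54 ± 0.191, adjusted p = 3.01e-07). In S7fl/fl Aurka gave 13.3, 11.5, 17.3, 8.88 and 12.4 CPM at day 3 and 5.41, 5.15 and 5.09 at baseline (log2 1.28 ± 0.188, adjusted p = 3.53e-06). Bub1, a checkpoint kinase at the kinetochore, gave 27.9, 21.1, 21.1, 10.1 and 14.7 CPM in S7fl/fl day 3 and 6.65, 5.09 and 6.93 CPM in S7fl/fl baseline (log2 1.61 ± 0.244, adjusted p = 6e-06). None of these pairs of groups overlapped.

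Further mitosis members followed. The spindle motors and microtubule proteins Kif11, Kif20a, Tpx2 and Nusap1 rose by 0.70 to 1.61 in MyS7KO and 0.65 to 1.30 in S7fl/fl, and the centromere proteins Cenpe and Cenpa by 0.70 to 0.80 in MyS7KO and 0.70 to 0.96 in S7fl/fl. Birc5 (survivin, a partner of Aurora B) rose by 1.99 in MyS7KO and 1.32 in S7fl/fl. Cdc20 and Ube2c, which serve the anaphase-promoting complex, rose by 1.05 and 2.06 in MyS7KO and by 0.60 and 1.28 in S7fl/fl. Foxm1, the factor that drives many of these genes, rose by 1.04 in MyS7KO and 0.78 in S7fl/fl, and Ccnf (cyclin F) by 1.13 in MyS7KO and 1.36 in S7fl/fl.

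A few members went another way. Ccnd1 gave 113, 120 and 104 CPM in MyS7KO and 93.4, 103 and 97 in S7fl/fl at baseline, 80.7, 76.6, 75.5, 86 and 79.4 in MyS7KO and 82.8, 67.1, 72.4, 54.8 and 75 in S7fl/fl at day 3, and 68.3, 43.1, 77.5 and 64.5 in MyS7KO and 70.8, 51.4 and 47.5 in S7fl/fl at day 7. It fell at day 3, at log2 -0.50 ± 0.145 (adjusted p = 0.00476) in MyS7KO and -0.47 ± 0.146 (adjusted p = 0.00678) in S7fl/fl, and every day 3 and day 7 value lay below every baseline value of its genotype. Kif23, a motor of the central spindle, gave 31.9, 24.2, 25, 26.2 and 27.1 CPM in MyS7KO day 3 and 31.3, 41.7 and 48.1 CPM in MyS7KO baseline (log2 -0.59 ± 0.208, adjusted p = 0.0171), overlapping narrowly. In S7fl/fl it gave 30.8, 25.9, 30, 12.6 and 19.5 CPM at day 3 and 38.1, 32.5 and 38.3 at baseline (log2 -0.61 ± 0.208, adjusted p = 0.0141). Cenpf, a kinetochore protein, did not pass at day 3, at 0.34 ± 0.235 (adjusted p = 0.205) in MyS7KO and 0.40 ± 0.238 (adjusted p = 0.143) in S7fl/fl. Espl1, the protease separase that frees sister chromatids, did not pass either, at 0.14 ± 0.108 (adjusted p = 0.247) in MyS7KO and 0.24 ± 0.108 (adjusted p = 0.0556) in S7fl/fl. Cenpf, Espl1 and Cdk2 are the 3 members not called between day 3 and baseline in either genotype.

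Markers of other cells moved in the same comparisons. Classical monocyte markers summed to 680 to 927 CPM in MyS7KO day 3 against 164 to 202 in MyS7KO baseline, and to 722 to 1846 in S7fl/fl day 3 against 199 to 249 in S7fl/fl baseline, and 6 of 7 rose in MyS7KO and 7 of 7 in S7fl/fl. All 7 resident macrophage markers fell in both genotypes, with sums of 1497 to 2198 CPM in MyS7KO day 3 against 5848 to 8025 in MyS7KO baseline. All 6 endothelial markers fell, with sums of 475 to 818 CPM in MyS7KO day 3 against 1147 to 2284 in MyS7KO baseline. Fibroblast markers split, with 2 higher and 3 lower of 7 in MyS7KO and 0 higher and 3 lower in S7fl/fl. The part of these cells in the rise of the cycle genes was not tested.

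The comparison of day 7 with baseline asked which genes still differed later on. In MyS7KO 20 members were higher and 2 lower, where 22.2% of all genes rose and 21.8% fell. In S7fl/fl 34 were higher and 2 lower, where 24.8% rose and 25.4% fell. Of the S phase list 8 of 24 were higher in MyS7KO (median log2 0.32) and 14 of 24 in S7fl/fl (median 0.52). Of the mitosis list 12 of 27 were higher and 1 lower in MyS7KO (median 0.53), and 20 were higher and 1 lower in S7fl/fl (median 0.83). The median over all genes tested was -0.01 in MyS7KO and -0.02 in S7fl/fl. The MyS7KO count of 22 fell to 14 without replicate 1 or 2 of MyS7KO baseline or replicate 5 of MyS7KO day 7, and the S7fl/fl count of 36 fell to 22 without replicate 3 of S7fl/fl day 7. With sex as a covariate the counts were 28 in MyS7KO and 27 in S7fl/fl. By limma-voom with sample weights they were 30 in MyS7KO and 29 in S7fl/fl, so the gap between these counts depended on the fit.

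Cdt1, Ccne1 and E2f8 had the lowest p of the S phase list in both genotypes. Cdt1, which loads the MCM ring, gave 46.9, 69, 52.8 and 49.7 CPM in MyS7KO day 7 and 27.6, 26.4 and 24.8 in MyS7KO baseline (log2 1.05 ± 0.175, adjusted p = 4.51e-05). In S7fl/fl it gave 52.9, 75.5 and 49.7 CPM at day 7 and 27.5, 29.4 and 16.5 at baseline (log2 1.28 ± 0.184, adjusted p = 6.61e-06). Its times did not overlap in either genotype. Ccne1 was higher by 1.56 ± 0.29 (adjusted p = 0.000157) in MyS7KO and 1.65 ± 0.298 (adjusted p = 9.07e-05) in S7fl/fl. E2f8, an E2F that represses its targets late in S phase, gave 10, 11.4, 8.15 and 10.9 CPM in MyS7KO day 7 and 4.13, 5.78 and 4.41 in MyS7KO baseline (log2 1.08 ± 0.219, adjusted p = 0.00038). E2f8 gave 9.51, 14.5 and 8.74 CPM in S7fl/fl day 7 and 4.79, 5.49 and 3.51 in S7fl/fl baseline (log2 1.25 ± 0.231, adjusted p = 0.000114), again without overlap. Rrm2, Gmnn, Gins2, Tk1 and E2f1 were the other 5 S phase members higher in MyS7KO, and all of them were higher in S7fl/fl too. Of the 6 Mcm genes none passed in MyS7KO and 3, Mcm2, Mcm5 and Mcm6, rose in S7fl/fl. The Mcm5 values were 0.32 ± 0.191 (adjusted p = 0.174) in MyS7KO and 0.76 ± 0.202 (adjusted p = 0.00358) in S7fl/fl.

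Espl1 had the lowest p of the mitosis list in both genotypes at day 7, though it had not passed at day 3. It gave 48, 43.6, 46 and 50.7 CPM in MyS7KO day 7, against 31.3, 33.1, 33.5, 30 and 30.5 in MyS7KO day 3 and 25.6, 28.6 and 31.8 in MyS7KO baseline. In S7fl/fl it gave 47.3, 45.7 and 40.8 CPM at day 7, against 34.7, 29.7, 35.6, 24.7 and 26.2 at day 3 and 25.6, 25.7 and 25.3 at baseline. Day 7 lay above both earlier times in each genotype, by 0.71 ± 0.114 (adjusted p = 2.68e-05) over baseline in MyS7KO and 0.80 ± 0.12 (adjusted p = 1.05e-05) in S7fl/fl. Plk1 gave 6.79, 5.81, 6.64 and 10.4 CPM in MyS7KO day 7 and 3.3, 3.87 and 3.22 in MyS7KO baseline (log2 1.10 ± 0.258, adjusted p = 0.00152). Ccnb1 was higher by 0.97 ± 0.265 (adjusted p = 0.00535) in MyS7KO and 1.38 ± 0.28 (adjusted p = 0.000323) in S7fl/fl, and Mki67 by 0.79 ± 0.242 (adjusted p = 0.0122) in MyS7KO and 1.13 ± 0.257 (adjusted p = 0.00109) in S7fl/fl. Cenpa, the histone of centromeres, gave 62.1, 73.6 and 59.9 CPM in S7fl/fl day 7 and 44.1, 37.4 and 37.8 in S7fl/fl baseline (log2 0.71 ± 0.148, adjusted p = 0.000389). Cdk1 was higher by 0.94 ± 0.299 (adjusted p = 0.015) in MyS7KO, a call lost without replicate 1 or 2 of MyS7KO baseline (adjusted p = 0.0751 and 0.0709) or replicate 5 of MyS7KO day 7 (0.0585), and by limma on log2(FPKM + 1) without a filter (0.0541). The S7fl/fl change was 1.17 ± 0.313 (adjusted p = 0.00406).

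Top2a did not pass in MyS7KO (0.40 ± 0.219, adjusted p = 0.147) and was higher in S7fl/fl (0.62 ± 0.233, adjusted p = 0.0328), a call lost without replicate 2 or 3 of S7fl/fl baseline (adjusted p = 0.0906 and 0.0774) and without replicate 2 or 3 of S7fl/fl day 7 (0.0554 and 0.134). With sex as a covariate the S7fl/fl change of Top2a was 0.39 (adjusted p = 0.168), and the call was also lost without the low-count filter (0.073), by limma-voom with sample weights (0.0654) and by limma on log2(FPKM + 1) without a filter (0.102). Ccnd1 was still lower, at log2 -0.83 ± 0.153 (adjusted p = 0.000153) in MyS7KO and -0.79 ± 0.166 (adjusted p = 0.000421) in S7fl/fl. Kif23 was lower as well: it gave 25.9, 19.2, 18.6 and 26.5 CPM in MyS7KO day 7 and 31.3, 41.7 and 48.1 in MyS7KO baseline (log2 -0.84 ± 0.22, adjusted p = 0.00392), and its change in S7fl/fl was -0.68 ± 0.238 (adjusted p = 0.0212). Fibroblast markers summed to 1771 to 5080 CPM in MyS7KO day 7 against 500 to 1041 in MyS7KO baseline, and to 1285 to 3397 in S7fl/fl day 7 against 703 to 1053 in S7fl/fl baseline, with 4 of 7 higher and 2 lower in each genotype. Resident macrophage markers summed to 975 to 1864 CPM in MyS7KO day 7 against 5848 to 8025 in MyS7KO baseline, and to 1539 to 1791 in S7fl/fl day 7 against 5031 to 6438 in S7fl/fl baseline, and all 7 fell in both genotypes. Endothelial markers summed to 199 to 1293 CPM in MyS7KO day 7 against 1147 to 2284 in MyS7KO baseline, and to 266 to 548 in S7fl/fl day 7 against 1702 to 2421 in S7fl/fl baseline, with 5 of 6 lower in MyS7KO and 6 of 6 in S7fl/fl. Classical monocyte markers summed to 299 to 638 CPM in MyS7KO day 7 against 164 to 202 in MyS7KO baseline, and to 506 to 730 in S7fl/fl day 7 against 199 to 249 in S7fl/fl baseline, with 3 of 7 higher in MyS7KO and 2 of 7 in S7fl/fl. The part of these cells in the day 7 values was not tested.

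**Figure D4:**
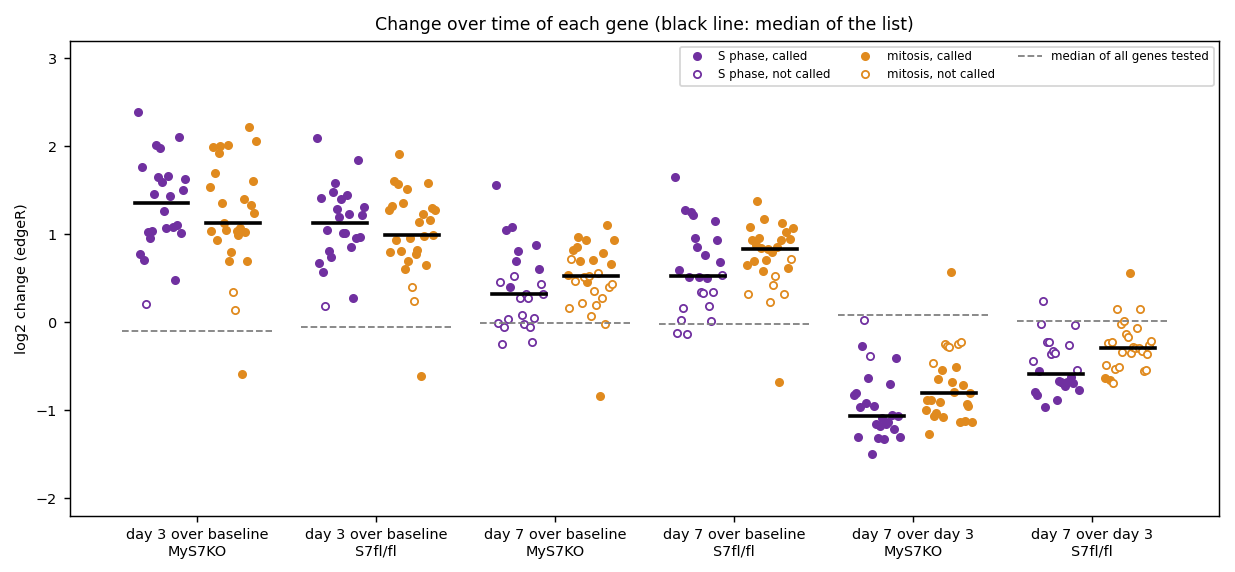
Each point is the edgeR log2 change (vertical axis) of 1 S phase or mitosis member in 1 time comparison within 1 genotype (horizontal axis), filled where called, with black lines for list medians and a dashed line for the median of all genes tested. Medians of day 3 over baseline lie between 0.99 and 1.35, and those of day 7 over day 3 between -1.06 and -0.29.

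From day 3 to day 7 most S phase genes fell in both genotypes. In MyS7KO 42 members were lower and 1 higher, where 19.1% of all genes fell and 20.5% rose. In S7fl/fl 15 were lower and 1 higher, where 10.1% fell and 11.5% rose. The lower members were 22 of 24 S phase and 20 of 27 mitosis genes in MyS7KO (median log2 -1.06 and -0.80), and 13 of 24 S phase and 2 of 27 mitosis genes in S7fl/fl (median -0.58 and -0.29). The median over all genes tested was 0.08 in MyS7KO and 0.01 in S7fl/fl. The S7fl/fl count of 16 was 9 without replicate 2 and 8 without replicate 4 of S7fl/fl day 7, and 24 without replicate 4 of S7fl/fl day 3. Whether the decline itself differed between genotypes is tested further on, and no member passed. Over the same days classical monocyte markers summed to 299 to 638 CPM in MyS7KO day 7 against 680 to 927 in MyS7KO day 3, and to 506 to 730 in S7fl/fl day 7 against 722 to 1846 in S7fl/fl day 3, with 5 of 7 lower in each genotype. Fibroblast markers summed to 1771 to 5080 CPM in MyS7KO day 7 against 546 to 1219 in MyS7KO day 3, and to 1285 to 3397 in S7fl/fl day 7 against 247 to 1089 in S7fl/fl day 3, with 7 of 7 higher in MyS7KO and 5 of 7 in S7fl/fl. Their part in the decline was not tested.

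Helicase subunits had the 3 lowest p-values of the S phase list in each genotype, Mcm4, Mcm2 and Mcm5 in MyS7KO and Mcm4, Mcm2 and Mcm6 in S7fl/fl. By size the largest S phase falls were those of Gins1 in MyS7KO (-1.50 ± 0.198, adjusted p = 3.28e-06) and Chek1 in S7fl/fl (-0.96 ± 0.256, adjusted p = 0.00918). Mcm4 gave 28, 26.6, 32.3 and 39.2 CPM in MyS7KO day 7 and 69.5, 65.4, 70.3, 61.2 and 68.7 in MyS7KO day 3 (log2 -1.09 ± 0.124, adjusted p = 6.47e-07). In S7fl/fl Mcm4 gave 40.7, 45.6 and 33.2 CPM at day 7 and 72.5, 66.6, 67.9, 46.3 and 66 at day 3 (log2 -0.68 ± 0.135, adjusted p = 0.000821). Mcm2 gave 24.1, 24.5, 25.2 and 37.7 CPM in MyS7KO day 7 and 70.9, 70.1, 72.5, 67.3 and 67.4 in MyS7KO day 3 (log2 -1.32 ± 0.166, adjusted p = 2.25e-06). In MyS7KO the times did not overlap for either gene, while replicate 4 of S7fl/fl day 3 (46.3 CPM of Mcm4) lay just above the highest S7fl/fl day 7 library (45.6 CPM). Mcm2 in S7fl/fl gave 29.8, 42.3 and 30.1 CPM at day 7 and 78.9, 60.7, 74.9, 38.5 and 62.3 at day 3, which overlap (log2 -0.89 ± 0.181, adjusted p = 0.00107). Mcm6 gave 64.9, 85.1 and 61.7 CPM in S7fl/fl day 7 and 137, 114, 137, 84.8 and 113 in S7fl/fl day 3, overlapping narrowly (log2 -0.73 ± 0.164, adjusted p = 0.00243). Mcm5 fell, at log2 -1.33 ± 0.17 (adjusted p = 2.78e-06) in MyS7KO and -0.69 ± 0.183 (adjusted p = 0.00868) in S7fl/fl, where the call was lost without replicate 2 of S7fl/fl day 7 (adjusted p = 0.0743). Rrm2 fell, at log2 -1.22 ± 0.211 (adjusted p = 9.42e-05) in MyS7KO. In S7fl/fl it fell, at log2 -0.69 ± 0.228 (adjusted p = 0.0348), a call lost without any of replicates 1, 2 and 3 of S7fl/fl day 3 (adjusted p = 0.0822, 0.059 and 0.0724) or replicates 2 and 4 of S7fl/fl day 7 (0.128 and 0.167). The Rrm2 call in S7fl/fl was also lost with the replicate block (adjusted p = 0.0631), without the low-count filter (0.0966), with only the groups compared in the fit (0.1) and by limma on log2(FPKM + 1) without a filter (0.0945). Pcna fell in MyS7KO (-0.70 ± 0.098, adjusted p = 6.63e-06) and did not pass in S7fl/fl (-0.26 ± 0.106, adjusted p = 0.0782).

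Of the mitosis list, Aurka and Bub1 were the 2 that fell in S7fl/fl. Aurka gave 6.51, 5.37, 6.58 and 9.41 CPM in MyS7KO day 7 and 14, 13.1, 16.4, 13.8 and 12.5 in MyS7KO day 3, without overlap (log2 -1.0 ± 0.168, adjusted p = 5.55e-05). In S7fl/fl it gave 8.26, 8.85 and 7.46 CPM at day 7 and 13.3, 11.5, 17.3, 8.88 and 12.4 at day 3 (log2 -0.63 ± 0.182, adjusted p = 0.0152), a call lost without replicate 2 or 4 of S7fl/fl day 7 (adjusted p = 0.0541 and 0.0764). Bub1 gave 11.4, 13.7 and 11 CPM in S7fl/fl day 7 and 27.9, 21.1, 21.1, 10.1 and 14.7 in S7fl/fl day 3, which overlap (log2 -0.66 ± 0.232, adjusted p = 0.0444). That call was lost without any 1 of 14 libraries, with adjusted p from 0.0503 to 0.15. It was also lost with the replicate block (adjusted p = 0.103), without the low-count filter (0.0753), with only the groups compared in the fit (0.124) and by limma on FPKM (0.0676 to 0.149). Melk, a kinase of cycling cells, gave 5.66, 5.69, 5.3 and 8.05 CPM in MyS7KO day 7 and 13.7, 13, 13.9, 11.6 and 15.6 in MyS7KO day 3, without overlap (log2 -1.13 ± 0.208, adjusted p = 0.000146). Ccnb1, Cdk1 and Top2a fell in MyS7KO, at log2 -1.03 ± 0.224 (adjusted p = 0.000846), -1.08 ± 0.256 (adjusted p = 0.00212) and -0.93 ± 0.194 (adjusted p = 0.000645). In S7fl/fl they did not pass, with -0.53 ± 0.243 (adjusted p = 0.127), -0.34 ± 0.275 (adjusted p = 0.423) and -0.54 ± 0.211 (adjusted p = 0.0721). Mki67 did not pass in either genotype, at -0.23 ± 0.209 (adjusted p = 0.396) in MyS7KO and 0.15 ± 0.226 (adjusted p = 0.68) in S7fl/fl. Espl1 was the 1 member to rise, by 0.57 ± 0.0979 (adjusted p = 6.95e-05) in MyS7KO and 0.56 ± 0.106 (adjusted p = 0.000494) in S7fl/fl.

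The ratio of summed S phase to summed mitosis CPM was 1.53, 1.36 and 1.36 in MyS7KO and 1.47, 1.66 and 1.46 in S7fl/fl libraries at baseline. At day 3 it was 1.37, 1.54, 1.36, 1.31 and 1.34 in MyS7KO and 1.32, 1.42, 1.25, 1.92 and 1.65 in S7fl/fl libraries, and at day 7 0.929, 1.15, 1.26 and 1.13 in MyS7KO and 1.14, 1.16 and 1.28 in S7fl/fl libraries. All day 7 ratios of MyS7KO lay below its baseline and day 3 ratios, and those of S7fl/fl lay below its baseline ratios and overlapped day 3 at 1.25 to 1.28. Abundant members such as Pcna, Mki67 and Top2a weigh most in these sums, and no test was made on the ratio.

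The comparison of MyS7KO with S7fl/fl asked whether these genes differ between the genotypes at each time. MyS7KO mice carry the Cre allele that S7fl/fl mice lack, so effects of Smad7 loss and of that allele cannot be told apart. edgeR called 0 of 52 members at baseline, at day 3 and at day 7, where 0.0121%, 0.0121% and 0.0181% of all genes were called, and DESeq2 and limma-voom also called 0 members at each time. At an unadjusted p under 0.05 stood 1 member at baseline, 1 at day 3 and 7 at day 7, and 2.27%, 3.59% and 13.1% of all genes. The median log2 change of MyS7KO over S7fl/fl was -0.02 for the S phase list and 0.09 for the mitosis list at baseline, 0.17 and 0.26 at day 3, and -0.25 and -0.16 at day 7. Over all genes tested it was -0.03, -0.00 and -0.01. At day 3 51 of 52 members had a positive estimate (49.5% of all genes), and at day 7 5 of 52 did (49% of all genes). Levels of these genes share their libraries, so a shared sign over many members is not many independent observations.

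**Figure D5:**
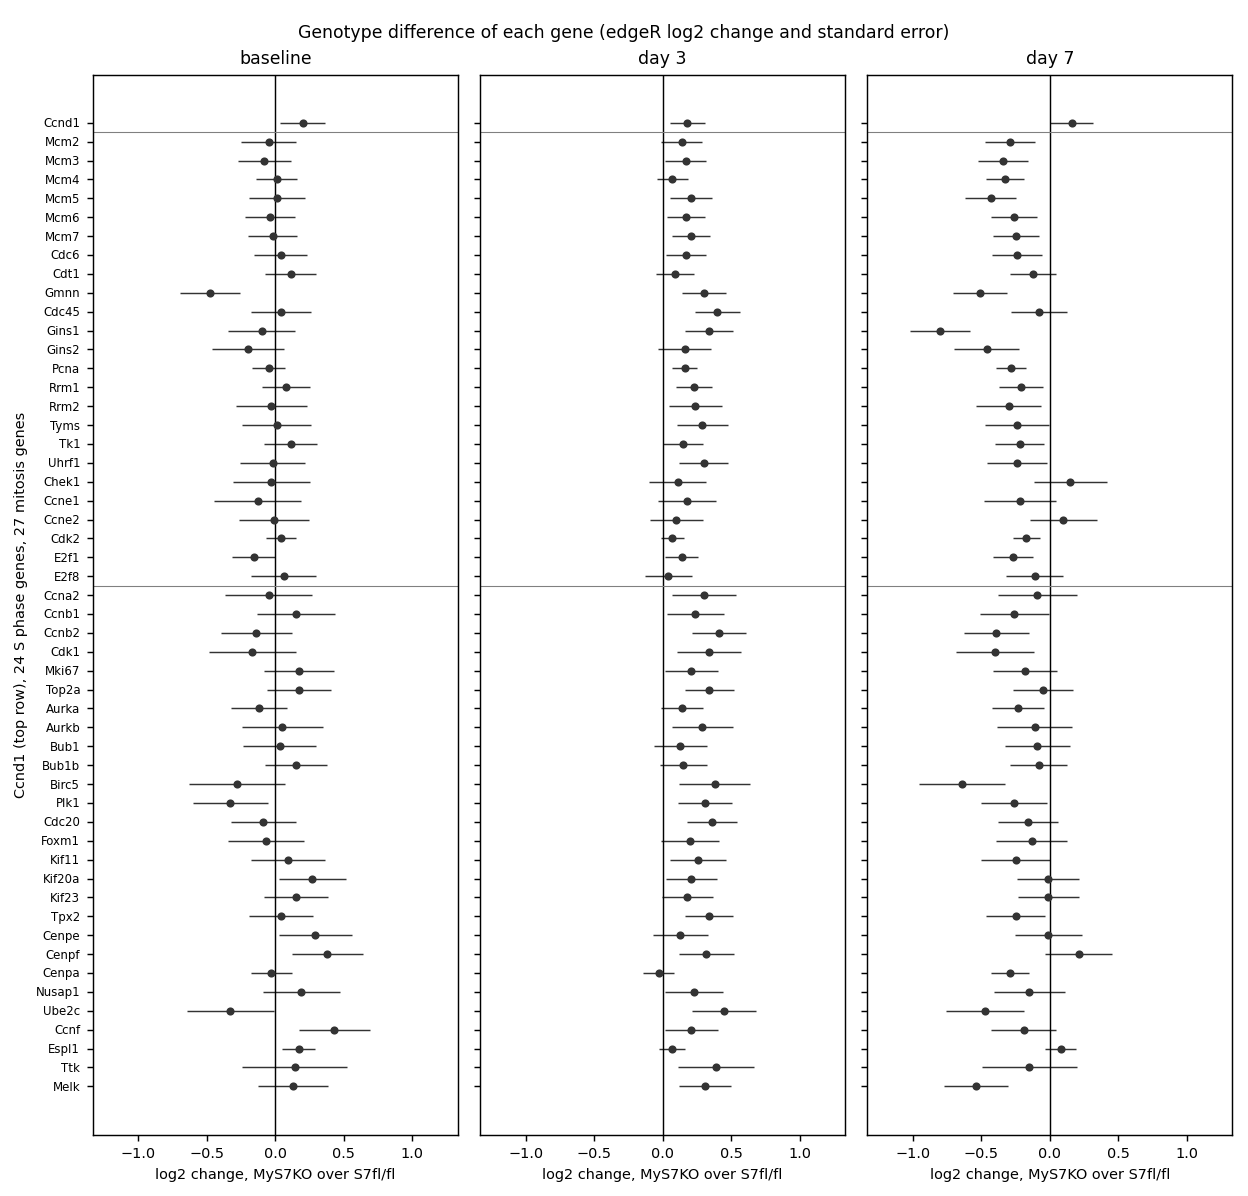
The log2 change of MyS7KO over S7fl/fl (horizontal axis) with its standard error (bars) for every member (rows) at baseline, day 3 and day 7. Estimates scatter about 0 at baseline, lie to the right for 51 of 52 members at day 3 and to the left for 47 at day 7, and no member was called at any time.

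At baseline the lowest p-values of the S phase list were those of Gmnn, E2f1 and Gins2. Gmnn gave 4.64, 5.01 and 5.9 CPM in MyS7KO baseline and 7.23, 7.18 and 7.27 CPM in S7fl/fl baseline, without overlap, a difference that did not pass (log2 -0.48 ± 0.218, adjusted p = 0.999). E2f1, the activator of S phase genes, gave 19.1, 18.4 and 25.9 CPM in MyS7KO baseline and 21.2, 29.4 and 20.4 CPM in S7fl/fl baseline (log2 -0.16 ± 0.159, adjusted p = 0.999), and without replicate 2 of S7fl/fl baseline its sign turned (log2 0.03). Gins2 gave 4.02, 3.76 and 5.45 CPM in MyS7KO baseline and 4.54, 4.92 and 5.77 CPM in S7fl/fl baseline (log2 -0.20 ± 0.265, adjusted p = 0.999). Both pairs overlap. In the mitosis list Ccnf gave 4.49, 4.91 and 5.75 CPM in MyS7KO baseline and 2.52, 3.9 and 4.83 CPM in S7fl/fl baseline (log2 0.43 ± 0.261, adjusted p = 0.999). Cenpf gave 10.6, 12.2 and 13.5 CPM in MyS7KO baseline and 8.88, 7.75 and 11.2 CPM in S7fl/fl baseline (log2 0.38 ± 0.262, adjusted p = 0.999), and Espl1 gave 25.6, 28.6 and 31.8 CPM in MyS7KO baseline and 25.6, 25.7 and 25.3 CPM in S7fl/fl baseline (log2 0.17 ± 0.12, adjusted p = 0.999). None of the 6 passed. Beside Gmnn, Plk1 (3.22 to 3.87 CPM in MyS7KO and 4.13 to 4.81 in S7fl/fl) did not overlap at baseline. Nor did Ccnd1 (104 to 120 CPM in MyS7KO and 93.4 to 103 in S7fl/fl). MyS7KO lay wholly below S7fl/fl for 3.43% of all genes and wholly above for 2.77%. Ccnd1 overlapped at day 3 (log2 0.18 ± 0.128, adjusted p = 0.982) and day 7 (0.16 ± 0.155, adjusted p = 0.679).

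At day 3 Cdc45 gave 12.6, 13.8, 18.9, 17 and 18.3 CPM in MyS7KO day 3 and 15, 10.7, 13.6, 8.82 and 12.9 CPM in S7fl/fl day 3 (log2 0.40 ± 0.162, adjusted p = 0.982). Gins1 gave 13.6, 15.4, 18.5, 11.8 and 15.2 CPM in MyS7KO day 3 and 12.1, 11.6, 13.2, 10 and 11.8 CPM in S7fl/fl day 3 (log2 0.34 ± 0.176, adjusted p = 0.982), and Gmnn gave 15.7, 17.4, 27.1, 19.7 and 22.4 CPM in MyS7KO day 3 and 18, 14.6, 17.5, 11.7 and 20.9 CPM in S7fl/fl day 3 (log2 0.30 ± 0.16, adjusted p = 0.982). All 3 pairs overlap, and none passed. In the mitosis list Ccnb2, the second B cyclin, gave 30.6, 25.3, 30, 23.2 and 30.1 CPM in MyS7KO day 3 and 26.6, 20.8, 28.3, 10.7 and 18.5 CPM in S7fl/fl day 3 (log2 0.41 ± 0.197, adjusted p = 0.982). Cdc20 gave 18.6, 15.3, 19.7, 18.9 and 16.3 CPM in MyS7KO day 3 and 17.3, 14.2, 16.9, 7.42 and 13.3 CPM in S7fl/fl day 3 (log2 0.36 ± 0.18, adjusted p = 0.982), and Tpx2, which activates Aurora A on the spindle, gave 42.7, 39.3, 55.6, 43.8 and 47.9 CPM in MyS7KO day 3 and 49.4, 35.5, 46.4, 18.7 and 30.6 CPM in S7fl/fl day 3 (log2 0.34 ± 0.176, adjusted p = 0.982). In each of these 3 replicate 4 is the lowest S7fl/fl library, and all 3 pairs overlap.

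One library stood apart at day 3. Replicate 4 of S7fl/fl day 3 was the lowest of its group in 50 of 52 members, 22 of 24 in the S phase list and 27 of 27 in the mitosis list. Without it the median log2 change of MyS7KO over S7fl/fl at day 3 was 0.08 for the S phase list and 0.10 for the mitosis list, against 0.17 and 0.26 with it. The same library had the highest sum of classical monocyte markers of its group, 1846 CPM against 722 to 1458 in the other 4, the lowest sum of fibroblast markers, 247 CPM against 551 to 1089, and the lowest sum of endothelial markers, 329 CPM against 432 to 787. It carried Xist, and Y-linked RNA made up 8.2% of its sex-linked signal once each was scaled to its median in the libraries that carry it, the highest minor share of the 23. What these have to do with its low cycle genes was not tested.

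At day 7 most estimates were below 0. Gins1, a subunit of the GINS complex, gave 4.09, 5.49, 4.6 and 6.74 CPM in MyS7KO day 7 and 7.71, 12.9 and 6.85 CPM in S7fl/fl day 7, without overlap, the lowest p among the members (log2 -0.80 ± 0.219, adjusted p = 0.255). Gmnn gave 8.75, 8.56, 6.87 and 12.3 CPM in MyS7KO day 7 and 12.6, 14.1 and 12.3 CPM in S7fl/fl day 7, in which the highest MyS7KO library lies just below the lowest S7fl/fl library, both at 12.3 CPM after rounding (log2 -0.51 ± 0.196, adjusted p = 0.327). Pcna, at the values given above, gave log2 -0.28 ± 0.11 (adjusted p = 0.33). In the mitosis list Melk gave 5.66, 5.69, 5.3 and 8.05 CPM in MyS7KO day 7 and 8.69, 11.2 and 7.18 CPM in S7fl/fl day 7 (log2 -0.54 ± 0.232, adjusted p = 0.351), Cenpa gave 60.3, 46.4, 49.1 and 57.5 CPM in MyS7KO day 7 and 62.1, 73.6 and 59.9 CPM in S7fl/fl day 7 (log2 -0.29 ± 0.138, adjusted p = 0.374), and Birc5 gave 12.5, 10.3, 12.5 and 22.7 CPM in MyS7KO day 7 and 19.5, 29.6 and 18.9 CPM in S7fl/fl day 7 (log2 -0.64 ± 0.316, adjusted p = 0.391). Melk, Cenpa and Birc5 overlap between genotypes. In these 2 members, Gins1 and Gmnn, every MyS7KO library lay below every S7fl/fl library, as it did for 5.63% of all genes. Within MyS7KO replicate 5 was the highest library in 45 of 52 members, and within S7fl/fl replicate 3 was the highest in 47. The S phase median of -0.25 was -0.10 without that S7fl/fl library and -0.40 without that MyS7KO library, and the mitosis median of -0.16 was -0.03 and -0.31. With sex as a covariate the day 7 medians were -0.07 for the S phase list and 0.20 for the mitosis list, again with 0 members called. That sex term is estimated from the baseline and day 3 libraries, since at day 7 each genotype carries 1 sex signal.

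Whether the genotype difference changed with time was tested directly, and edgeR called 0 of 52 members and 0% of all genes in each of the 3 tests, as did DESeq2 and limma-voom for the members. Between day 7 and day 3, 14 members had an unadjusted p under 0.05 (10.4% of all genes), 9 of the S phase and 5 of the mitosis list, all with a lower estimate at day 7 (6.23% of all genes). The median log2 difference was -0.44 for the S phase list, -0.39 for the mitosis list and 0.02 for all genes tested. The lowest p-values were those of Gins1, at -1.14 ± 0.281 (adjusted p = 0.416), Gmnn, at -0.81 ± 0.253 (adjusted p = 0.416), and Pcna, at -0.44 ± 0.143 (adjusted p = 0.416). In the mitosis list they were those of Melk, at -0.85 ± 0.299 (adjusted p = 0.442), Ccnb2, at -0.80 ± 0.309 (adjusted p = 0.447), and Ube2c, at -0.93 ± 0.368 (adjusted p = 0.447). None passed.

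Between day 3 and baseline 1 member stood at an unadjusted p under 0.05 (4.48% of all genes), Gmnn, at 0.78 ± 0.27 (adjusted p = 0.878). E2f1 and Gins1 followed at 0.30 ± 0.2 (adjusted p = 0.878) and 0.44 ± 0.302 (adjusted p = 0.878), and in the mitosis list Ube2c, Plk1 and Ccnb2 at 0.78 ± 0.394 (adjusted p = 0.878), 0.64 ± 0.337 (adjusted p = 0.878) and 0.54 ± 0.327 (adjusted p = 0.878). Between day 7 and baseline 1 member did (5.21% of all genes), Gins1, at -0.70 ± 0.329 (adjusted p = 0.877). Mcm4 and Mcm5 followed at -0.34 ± 0.203 (adjusted p = 0.877) and -0.44 ± 0.276 (adjusted p = 0.877), and in the mitosis list Melk, Ccnf and Cenpa at -0.67 ± 0.346 (adjusted p = 0.877), -0.62 ± 0.354 (adjusted p = 0.877) and -0.26 ± 0.203 (adjusted p = 0.9).

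Other genes of the pathway that are not members were followed as lists. Among the 4 further D cyclins and their kinases, Ccnd2 fell with Ccnd1 and Cdk4 rose at day 3. Ccnd2 averaged 43 ± 2.78 CPM in MyS7KO day 3 and 148 ± 19.8 in MyS7KO baseline, and 41.3 ± 9.5 in S7fl/fl day 3 and 142 ± 13.7 in S7fl/fl baseline (SD, n = 5 and 3). Its change was -1.78 ± 0.232 (adjusted p = 1.38e-06) in MyS7KO and -1.78 ± 0.232 (adjusted p = 1.54e-06) in S7fl/fl. Cdk4 averaged 132 ± 6.44 CPM in MyS7KO day 3 and 52.9 ± 7.2 in MyS7KO baseline, a rise of 1.32 ± 0.106 (adjusted p = 4.37e-10), and rose by 1.09 ± 0.105 (adjusted p = 7.64e-09) in S7fl/fl. From day 3 to day 7 Cdk4 fell, at log2 -0.99 ± 0.0942 (adjusted p = 6.01e-08) in MyS7KO and -0.57 ± 0.102 (adjusted p = 0.000304) in S7fl/fl. At day 7 Ccnd2 was lower than at baseline, at log2 -1.86 ± 0.248 (adjusted p = 5.9e-06) in MyS7KO and -2.04 ± 0.275 (adjusted p = 5.72e-06) in S7fl/fl, and Cdk6 higher by 0.60 ± 0.144 (adjusted p = 0.00168) in MyS7KO and 0.98 ± 0.153 (adjusted p = 1.74e-05) in S7fl/fl.

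Of 21 inhibitors of the cycle 7 rose and 6 fell at day 3 in each genotype, where 30.7% of all genes rose and 35.2% fell in MyS7KO and 29.9% rose and 34.1% fell in S7fl/fl. The lowest p-values were those of Tob1, which restrains growth and fell, at log2 -1.24 ± 0.0987 (adjusted p = 4.13e-10) in MyS7KO and -1.16 ± 0.0988 (adjusted p = 1.33e-09) in S7fl/fl, and of Btg1, of the same family, which rose by 1.59 ± 0.132 (adjusted p = 7.7e-10) in MyS7KO and 1.51 ± 0.131 (adjusted p = 1.86e-09) in S7fl/fl. The CDK inhibitor Cdkn1c averaged 5.62 ± 3.36 CPM in MyS7KO day 7 and 30.7 ± 6.39 in MyS7KO baseline, and fell, at log2 -2.45 ± 0.313 (adjusted p = 2.53e-06) in MyS7KO and -3.26 ± 0.361 (adjusted p = 3.34e-07) in S7fl/fl. Btg1 was still higher at day 7, by 1.09 ± 0.133 (adjusted p = 8.17e-07) in MyS7KO and 1.30 ± 0.14 (adjusted p = 1.26e-07) in S7fl/fl. At day 7 5 inhibitors were higher and 6 lower than at baseline in MyS7KO (22.2% and 21.8% of all genes), and 7 higher and 4 lower in S7fl/fl (24.8% and 25.4% of all genes). From day 3 to day 7, 5 rose and 6 fell in MyS7KO (20.5% and 19.1% of all genes), led by Rbl2, a retinoblastoma relative, at 0.67 ± 0.0977 (adjusted p = 1.03e-05) and E2f4, a repressive E2F, at -0.51 ± 0.0984 (adjusted p = 0.000234). In S7fl/fl 4 rose and 3 fell (11.5% and 10.1% of all genes), led by Gadd45b at 1.10 ± 0.164 (adjusted p = 4.14e-05) and E2f6 at -0.48 ± 0.126 (adjusted p = 0.00732).

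Further replication genes mostly rose at day 3 as well. Of 28 other replication genes 23 rose and 1 fell at day 3 in MyS7KO (30.7% and 35.2% of all genes) and 17 rose and 1 fell in S7fl/fl (29.9% and 34.1% of all genes). Lig1, the ligase that joins Okazaki fragments, and Dut, a dUTPase, led in MyS7KO, at 1.39 ± 0.169 (adjusted p = 2.5e-07) and 1.65 ± 0.213 (adjusted p = 5.61e-07). Chaf1b, a histone chaperone, and Hells, a chromatin remodeller, led in S7fl/fl, at 1.65 ± 0.213 (adjusted p = 5.8e-07) and 1.45 ± 0.194 (adjusted p = 9.62e-07). At day 7 4 were higher and 5 lower than at baseline in MyS7KO (22.2% and 21.8% of all genes), led by the falls of Slbp (-0.50 ± 0.108, adjusted p = 0.000745) and Orc6 (-0.59 ± 0.137, adjusted p = 0.00143). In S7fl/fl 7 were higher and 5 lower (24.8% and 25.4% of all genes), led by Chaf1b (1.29 ± 0.228, adjusted p = 7.44e-05) and Timeless (-1.75 ± 0.374, adjusted p = 0.000734). From day 3 to day 7 26 of 28 fell in MyS7KO (19.1% of all genes) and 12 of 28 in S7fl/fl (10.1% of all genes), among them Orc1, of the origin recognition complex, by -1.39 ± 0.206 (adjusted p = 1.36e-05) in MyS7KO and -0.85 ± 0.22 (adjusted p = 0.00707) in S7fl/fl. Lig1 led the MyS7KO falls, at -1.19 ± 0.151 (adjusted p = 2.28e-06), and Hells those of S7fl/fl, at -0.83 ± 0.188 (adjusted p = 0.00264).

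Of 39 other mitosis genes 36 rose and 1 fell at day 3 in MyS7KO (30.7% and 35.2% of all genes) and 30 rose and 1 fell in S7fl/fl (29.9% and 34.1% of all genes). Lmnb1, of the nuclear lamina, led in both, averaging 232 ± 9.5 CPM in MyS7KO day 3 and 38.1 ± 2.1 in MyS7KO baseline (log2 2.60 ± 0.11, adjusted p = 4.13e-14), with 2.57 ± 0.11 (adjusted p = 4.13e-14) in S7fl/fl. Cdca3 followed in MyS7KO (2.18 ± 0.243, adjusted p = 9.16e-08) and Mad2l1, a spindle checkpoint protein, in S7fl/fl (1.31 ± 0.186, adjusted p = 2.38e-06). At day 7 11 were higher and 1 lower than at baseline in MyS7KO (22.2% and 21.8% of all genes) and 21 higher and 1 lower in S7fl/fl (24.8% and 25.4% of all genes), again led by Lmnb1 and Cdca3. Lmnb1 was higher by 2.12 ± 0.11 (adjusted p = 2.17e-12) in MyS7KO and 2.54 ± 0.115 (adjusted p = 4.48e-13) in S7fl/fl, and Cdca3 by 1.22 ± 0.244 (adjusted p = 0.000388) in MyS7KO and 1.60 ± 0.254 (adjusted p = 2.64e-05) in S7fl/fl. From day 3 to day 7 28 of 39 fell in MyS7KO (19.1% of all genes), led by Incenp (-0.80 ± 0.136, adjusted p = 5.73e-05) and Lmnb1 (-0.48 ± 0.0898, adjusted p = 0.000164). In S7fl/fl 0 of 39 fell by edgeR (10.1% of all genes), and Cks2 rose (0.63 ± 0.114, adjusted p = 0.00033). There 7 of 39 had an unadjusted p under 0.05, against 33.4% of all genes. Between genotypes no gene of these lists was called at any time.

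Genes of macrophage growth factors and their receptors were the last list, with 9 tested. At day 3 2 rose and 5 fell in MyS7KO (30.7% and 35.2% of all genes) and 3 rose and 5 fell in S7fl/fl (29.9% and 34.1% of all genes). Csf2rb, the shared receptor chain for GM-CSF, IL-3 and IL-5, rose by 2.17 ± 0.192 (adjusted p = 2.34e-09) in MyS7KO and 2.44 ± 0.195 (adjusted p = 5.44e-10) in S7fl/fl. Maf, a transcription factor that holds macrophage division in check in mice, fell, at log2 -1.38 ± 0.141 (adjusted p = 1.85e-08) in MyS7KO and -1.09 ± 0.141 (adjusted p = 6.24e-07) in S7fl/fl. At day 7 Csf2rb was higher than at baseline by 1.67 ± 0.193 (adjusted p = 4.1e-07) in MyS7KO and 1.85 ± 0.202 (adjusted p = 1.61e-07) in S7fl/fl, and Maf lower, at log2 -0.95 ± 0.149 (adjusted p = 2.24e-05) in MyS7KO and -0.83 ± 0.162 (adjusted p = 0.000193) in S7fl/fl. Csf1r, the receptor of the main macrophage growth factor, averaged 2087 ± 168 CPM in MyS7KO day 7 and 1216 ± 121 in MyS7KO day 3, a rise of 0.78 ± 0.105 (adjusted p = 4.54e-06), and rose by 0.76 ± 0.113 (adjusted p = 4.42e-05) in S7fl/fl. Csf2rb fell in S7fl/fl from day 3 to day 7 (-0.59 ± 0.178, adjusted p = 0.02).

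Spread among libraries differed between groups. In both lists and both genotypes the median spread was higher at day 7 than at baseline. Day 3 had the lowest median in MyS7KO and the highest in S7fl/fl. Replicate 4 of S7fl/fl day 3 was the lowest library of its group in 27 of 27 mitosis genes. The median coefficient of variation over the mitosis genes was 17.7% in MyS7KO and 11.7% in S7fl/fl at baseline, 11.2% in MyS7KO and 33.7% in S7fl/fl at day 3, and 20.9% in MyS7KO and 16.5% in S7fl/fl at day 7. Over the S phase genes it was 16.2% in MyS7KO and 10.3% in S7fl/fl at baseline, 11.1% in MyS7KO and 21.3% in S7fl/fl at day 3, and 21.8% in MyS7KO and 18.7% in S7fl/fl at day 7. The members of a group were often extreme in the same library: replicate 3 of MyS7KO baseline was the highest of its group in 42 of 52 members, replicate 3 of MyS7KO day 3 in 30, replicate 1 of S7fl/fl day 3 in 33, and replicate 4 of S7fl/fl day 7 was the lowest in 43. S7fl/fl baseline had no such library, with at most 20 members highest in any 1 of its 3.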

How the data were processed

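RNA-seq of 23 libraries of sorted cardiac macrophages was deposited by the authors as 2 tables, 1 with raw read counts and 1 with FPKM values per gene. HTSeq 0.6.1, Cufflinks 2.1.1 and TopHat2 2.0.9 are listed, with GRCm38.p6 and mm10 as builds, per the submitters' processing notes; which tool made which column and whether strand was used are not given in the sources used here. Deposited counts were tested here with edgeR 4.0.16 (quasi-likelihood, TMM scaling, robust fit) in R 4.3.3, with all 23 libraries in 1 model of 6 groups, so that every comparison shares 1 estimate of spread. The filterByExpr filter left 16545 of 54532 genes, and p-values were adjusted by Benjamini-Hochberg over all of them, with 0.05 as the threshold for a call. CPM scale counts by the TMM-adjusted total over the genes tested. The deposited FPKM, which divide counts by transcript length and depth, served to order members within a group and for limma 3.58.1 on log2(FPKM + 1) or log2(FPKM + 0.1) as alternatives. Other alternatives were DESeq2 1.42.0, limma-voom, RLE scaling, no filter, only the groups compared, a replicate block, sex as a covariate, leaving out libraries of mixed sex signal and leaving out each library in turn.

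The members and lists were chosen with earlier results of these data known. Per-library values are given for 9 fixed members and for the 3 S phase and 3 mitosis members of lowest p in a comparison of 2 groups, and of the other pathway lists the 2 called genes of lowest p are named, except 1 result that is not reported here. Library pairs of 1 group differed beyond sampling noise, with a chi-square per degree of freedom of 9.34 to 56.6 over 35 pairs. The fit was tested on simulated counts. Promoter sequences are RefSeq's, of build GRCm38.p6, matched by symbol.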

Additional observations from a re-analysis of the deposited data

Results flagged for a closer look

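In groups of 4 or 5 libraries, 165 sets of values (members, sums and ratios) were searched for a library far from its group, and 7 held one, where chance gives about 1 in 20. Replicate 5 of MyS7KO day 7 stood above the other 3 libraries in Mcm2 (37.7 CPM), Tpx2 (29.1 CPM) and Melk (8.05 CPM). Replicate 4 of S7fl/fl day 3 stood below the others in Mcm4 (46.3 CPM). In MyS7KO day 3, replicate 4 stood apart in Mcm5 (83.0 CPM) and replicate 2 in Cdt1 (63.1 CPM). The same replicate 2 had a ratio of summed S phase to summed mitosis CPM of 1.54, where the other 4 lay between 1.31 and 1.37.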

How the results depend on the processing

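Each of 18 counts and medians was recomputed under 11 alternatives. Of the 198 values 3 were flagged as moved, and others changed without being flagged. With sex as a covariate the mitosis median of MyS7KO over S7fl/fl was -0.08 at baseline (0.09 without it) and 0.20 at day 7 (-0.16 without it). On log2(FPKM + 1) without a filter limma called 13 members at day 7 against baseline in MyS7KO, where edgeR called 22. Among values not flagged, the S phase median between genotypes at day 7 was -0.07 with sex as a covariate (-0.25 without it). Members called at day 7 against baseline were then 28 in MyS7KO and 27 in S7fl/fl (22 and 36 without it). Without libraries of mixed sex signal 24 members were called at day 7 against day 3 in S7fl/fl (16 with them). Leaving out each library in turn gave S phase medians of MyS7KO over S7fl/fl of -0.08 to 0.08 at baseline, 0.08 to 0.25 at day 3 and -0.40 to -0.10 at day 7, and mitosis medians of -0.05 to 0.20 at baseline, 0.10 to 0.40 at day 3 and -0.31 to -0.03 at day 7. Members called between day 3 and baseline numbered 47 to 50 in MyS7KO and 43 to 51 in S7fl/fl, between day 7 and baseline 14 to 26 in MyS7KO and 22 to 41 in S7fl/fl, and between day 7 and day 3 35 to 45 in MyS7KO and 8 to 24 in S7fl/fl. Counts between genotypes and of changes in the genotype difference were 0 under every alternative run and with each library left out. Residuals of same-numbered libraries correlated at -0.275 to 0.22, and 4 of 10 pairs were best matched to their own number. Numbers were not taken as pairs, though so few pairs cannot exclude a pairing. With the replicate block 49 members were called at day 3 over baseline, 25 at day 7 over baseline and 43 at day 7 over day 3 in MyS7KO. In S7fl/fl they were 50, 38 and 13 in the same order, and 0 were called between genotypes. Of 2958 values for 87 named results, 2907 kept their direction and side of the threshold, 50 lost their call and 1 reversed, E2f1 between genotypes at baseline which ranged from -0.33 to 0.03 with each library left out in turn and was above 0 without replicate 2 of S7fl/fl baseline. The cause was not tested. With sex as a covariate the fall of Kif23 at day 7 in MyS7KO was -0.54 (-0.84 without it). On log2(FPKM + 1), whose added constant shrinks changes of low genes, the day 3 rise of Ccne1 was 1.37 in MyS7KO and 1.16 in S7fl/fl.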
